A study of Homo sapiens with 12 samples.

Results

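Class IA phosphoinositide 3-kinase (PI3K) subunits and the insulin receptor substrates were followed in human melanoma cells that received etoposide with or without rapamycin. The set holds 9 of the 58307 named genes of the count table: the regulatory subunits PIK3R1, PIK3R2 and PIK3R3, the catalytic subunits PIK3CA, PIK3CB and PIK3CD, the substrates IRS1 and IRS2, and the adaptor GRB10. It was chosen by gene symbol around PIK3R3, whose fall with rapamycin in both cell lines was already known from these libraries. The rapamycin contrasts of PIK3R3 selected the set, so they are given as a description with no test. The other 8 genes were listed as its relatives and partners, with earlier results of the same libraries known, and their counts of calls support nothing on their own.

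RNA was sequenced from polyA-enriched libraries of A375 and SK-MEL-28, both established human melanoma cell lines. The 4 groups were A375 with etoposide, A375 with etoposide + rapamycin, SK-MEL-28 with etoposide and SK-MEL-28 with etoposide + rapamycin, with 3 libraries each and 12 in all. Etoposide, a topoisomerase II poison, was present in every group, so the effect of rapamycin, an inhibitor of mTOR complex 1 that induces autophagy, was measured on top of etoposide and not in untreated cells. Each line is a single cultured line. The study describes its sequenced samples as biological replicates, and the labels add nothing on how the cultures were kept apart. Library totals ran from 28189501 to 32499337 counts in named genes. On a gene linked to the donor, the 6 libraries labelled SK-MEL-28 did not match the cell line on their label. This check was made for that label alone. A375 and SK-MEL-28 are therefore used below as the names on the labels. The rapamycin contrasts were made within the 6 libraries of 1 label, while the comparison between cell lines rests on the labels.

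Markers of the melanocyte lineage were present only in part. The lineage factor SOX10 had group means of 291 to 475 CPM (counts after TMM scaling for library size), and S100B had 58.5 to 98.2 CPM. MITF, which drives the pigment genes, had 13.5 to 28.3 CPM. The pigment genes themselves were near 0, with group means of 1.63 to 2.50 CPM for PMEL, 0.583 to 1.20 CPM for MLANA, 0.216 to 1.89 CPM for DCT, and at most 0.0890 CPM for TYR. With rapamycin MITF fell in both lines, by 0.51 on the log2 scale in A375 (SE 0.10, edgeR adjusted p = 0.00248) and by 0.50 in SK-MEL-28 (SE 0.097, edgeR adjusted p = 0.00320). S100B fell by 0.58 (SE 0.063, edgeR adjusted p = 4.13e-05) and DCT by 1.70 (SE 0.43, edgeR adjusted p = 0.0106) in A375. These were the only markers of the 7 tested that passed in A375, and MITF alone passed in SK-MEL-28. The others moved in both directions. SOX10 had log2 fold changes of 0.14 in A375 (edgeR adjusted p = 0.572) and -0.23 in SK-MEL-28 (edgeR adjusted p = 0.543), with overlapping groups. In SK-MEL-28 DCT had 0.11 (edgeR adjusted p = 0.817), S100B -0.16 (edgeR adjusted p = 0.160), MLANA -1.04 (edgeR adjusted p = 0.0589) and PMEL 0.42 (edgeR adjusted p = 0.222), where the PMEL libraries lay higher with rapamycin and the MLANA libraries lower, without overlap. The part of these markers in the changes described below was not tested.

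A class IA PI3K is a pair of a regulatory subunit, which binds phosphotyrosines through SH2 domains, and a catalytic subunit, which makes the membrane lipid PIP3. Insulin and insulin-like growth factor receptors reach it through IRS1 and IRS2, scaffolds whose phosphorylated tyrosines recruit the regulatory subunit. GRB10 is an mTOR complex 1 substrate that inhibits these receptors, and mTOR complex 1 output also restrains IRS proteins, a well-known feedback onto the pathway.

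The promoters of PIK3R3 and IRS2 are shown because these genes had the lowest and the highest log2 fold change of the 9 with rapamycin in both cell lines. Each sequence holds the 250 bases before the RefSeq transcript start (GRCh38.p14, minus strand, written 5′ to 3′ along the gene), at chr1:46132630-46132879 for PIK3R3 and chr13:109786584-109786833 for IRS2. Capitals mark matches, on either strand, to 5 short motifs: TGTTTAC (forkhead), TGTTTTG (insulin response element), CACGTG (E-box), CATGTG (E-box variant) and ACGTG (core of the hypoxia response element, which lies within CACGTG).
PIK3R3: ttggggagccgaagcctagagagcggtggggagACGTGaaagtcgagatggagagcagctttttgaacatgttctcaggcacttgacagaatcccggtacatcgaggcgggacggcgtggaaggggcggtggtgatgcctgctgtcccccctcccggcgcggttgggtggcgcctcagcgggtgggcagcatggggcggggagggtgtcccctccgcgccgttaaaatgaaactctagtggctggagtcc
IRS2: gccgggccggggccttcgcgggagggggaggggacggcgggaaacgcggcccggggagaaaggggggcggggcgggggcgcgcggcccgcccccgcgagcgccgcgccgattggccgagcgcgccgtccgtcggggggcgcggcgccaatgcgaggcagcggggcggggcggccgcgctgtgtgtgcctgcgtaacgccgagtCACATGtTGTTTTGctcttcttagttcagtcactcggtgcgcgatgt
The PIK3R3 window held 1 ACGTG, a string found in 18.5% of 35116 RefSeq promoter windows of this length. The IRS2 window held 1 CATGTG, read as CACATG on the strand shown, and 1 TGTTTTG right after it. These strings occur in 9.42% and 4.30% of the windows. Both were put on the motif list after the IRS2 sequence had been seen, so the match there carries no weight. TGTTTAC, in 2.98% of windows, was found in PIK3CA alone among the 9 genes, and CACGTG, in 6.34% of windows, in none. GRB10 held 1 CATGTG and PIK3CD held 1 TGTTTTG, while the windows of PIK3R1, PIK3R2, PIK3CB and IRS1 held none of the 5 strings. All 9 windows were rich in G and C, from 57.6% in PIK3CA to 81.6% in PIK3R1. A match is a string in the reference and not a measured binding site.

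With etoposide alone, IRS2 was the most abundant of the 9 transcripts per unit of length in both cell lines. Levels were set as CPM per kilobase of merged exon (GENCODE exons on GRCh38), and only this scale is used to compare genes. In A375 the means were 63.6 for IRS2, 22.2 for PIK3R2, 9.01 for PIK3CD, 5.67 for PIK3CB and 3.82 for PIK3R3. PIK3R1 followed at 2.83, GRB10 at 2.60, PIK3CA at 1.87 and IRS1 at 0.943 CPM per kilobase. Only PIK3R1 and GRB10 overlapped as neighbours in this order, so their order is not fixed by 3 libraries.

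In SK-MEL-28 with etoposide the order began the same way, with IRS2 at 80.8 and PIK3R2 at 25.8 CPM per kilobase. PIK3CB came next at 5.76, ahead of PIK3R3 at 4.65 and PIK3CD at 4.27. PIK3R1 stood at 3.05, PIK3CA at 2.62, IRS1 at 1.65 and GRB10 at 1.44 CPM per kilobase. No neighbours in this order overlapped. Below IRS2 and PIK3R2 the order depended on the length used. With the longest transcript in place of merged exons, an alternative chosen after seeing the data, PIK3CD came next after PIK3R2 in both lines. It stood at 15.9 CPM per kilobase in A375, and at 7.54 in SK-MEL-28, overlapping PIK3CB at 7.22. IRS1 was then the least abundant in both, at 0.967 and 1.69 CPM per kilobase, and PIK3R1 stood above PIK3R3, at 6.63 against 5.05 in A375 and 7.14 against 6.14 in SK-MEL-28. With rapamycin PIK3R3 stood at 2.05 CPM per kilobase in A375, beside 2.21 for PIK3R1, and at 2.04 in SK-MEL-28, beside 2.41 for PIK3R1. The libraries of these neighbours overlapped in both lines on the merged exon scale, and with the longest transcript PIK3R1 lay above PIK3R3, at 5.17 against 2.71 and at 5.63 against 2.70.

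PIK3R3 encodes p55gamma, a short regulatory subunit that keeps the SH2 domains but lacks the SH3 domain of the larger p85 forms. It lies on the reverse strand at chr1:46040140-46133036. In A375 the 3 libraries with etoposide held 29.9, 24.9 and 30.1 CPM, and the 3 with rapamycin added held 16.4, 15.2 and 13.9 CPM. The SK-MEL-28 libraries held 34.4, 34.3 and 34.5 CPM with etoposide and 17.7, 13.6 and 14.1 CPM with etoposide + rapamycin. In either line every library with rapamycin lay below every library without it. The log2 fold change was -0.89 (SE 0.10) in A375, a 1.86-fold lower level, and -1.19 (SE 0.098) in SK-MEL-28, a 2.27-fold lower level. The value in SK-MEL-28 minus that in A375 was -0.29 (SE 0.14). The lines differed more before rapamycin, at 28.3 ± 2.94 and 34.4 ± 0.106 CPM (SD, n = 3), than after it, at 15.2 ± 1.25 and 15.1 ± 2.21 CPM. In bulk RNA, fewer cells with a transcript and less of it per cell cannot be told apart.

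**Figure D1:**
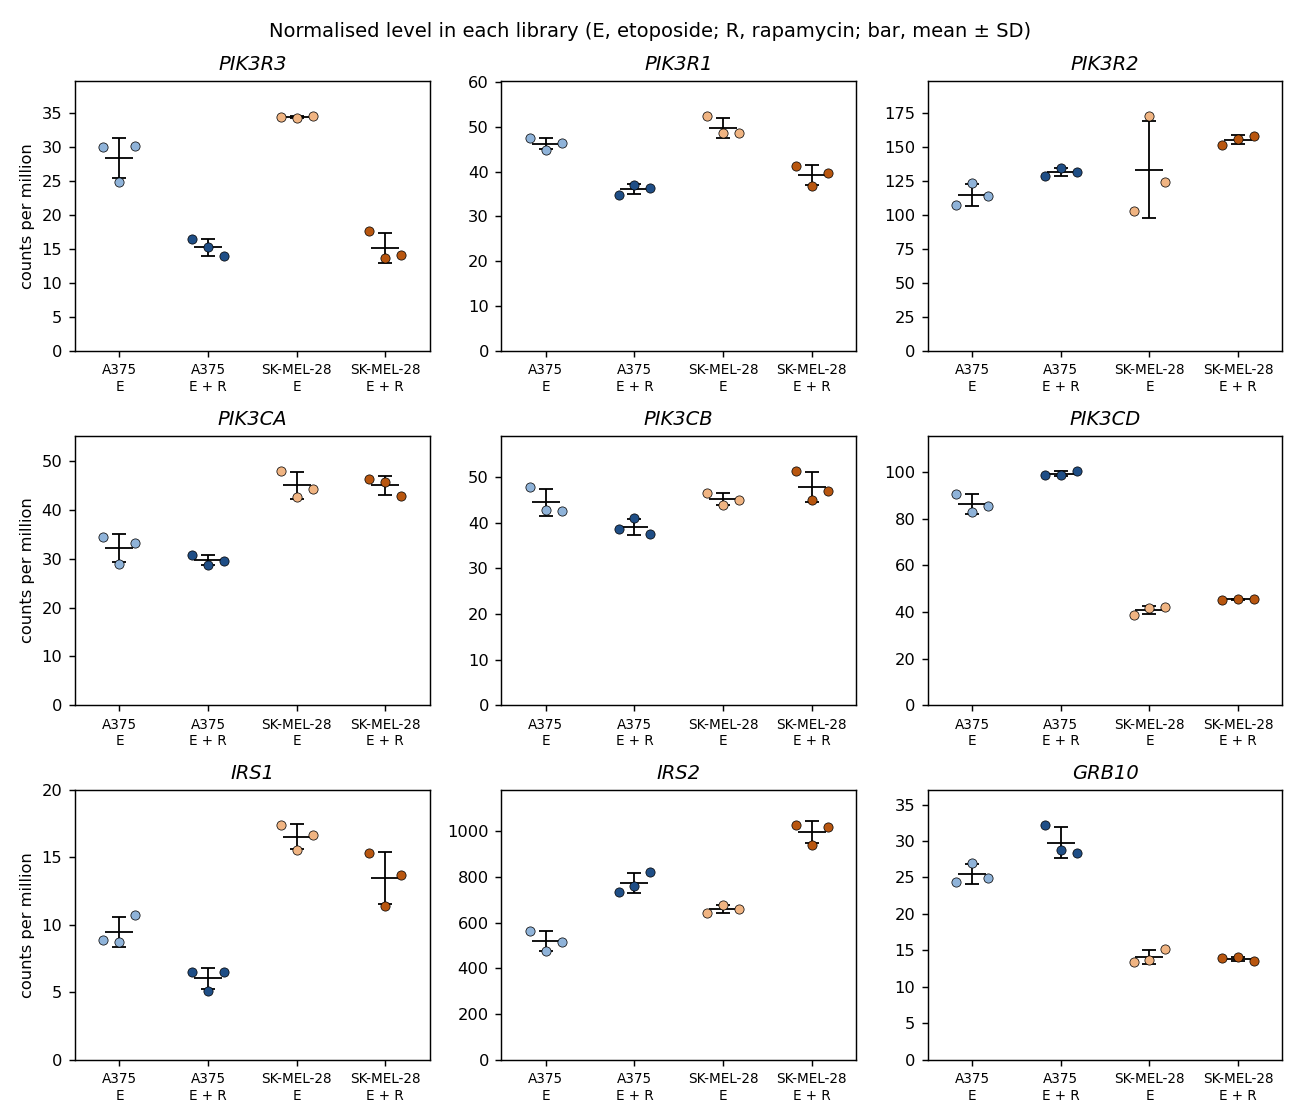
Normalised level (CPM, y axis from 0) of each of the 9 genes in the 12 libraries, by group (x axis), with 1 point per library and the mean ± SD of 3 libraries. PIK3R3 and PIK3R1 lie lower with rapamycin in both cell lines and IRS2 lies higher, with no overlap, while the SK-MEL-28 etoposide libraries of PIK3R2 spread from 103 to 173 CPM.

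Of the other regulatory subunits, PIK3R1 was lower with rapamycin in both lines and PIK3R2 was higher in A375. PIK3R1, which encodes p85alpha and its shorter forms p55alpha and p50alpha, had 47.4, 44.9 and 46.4 CPM with etoposide in A375 and 34.8, 37.0 and 36.4 CPM with rapamycin added. In SK-MEL-28 it had 52.4, 48.6 and 48.5 CPM with etoposide and 41.2, 36.8 and 39.8 CPM with etoposide + rapamycin. The groups did not overlap in either line. PIK3R1 fell by 0.35 on the log2 scale in A375 (SE 0.058, adjusted p = 0.000755 by the edgeR quasi-likelihood test) and by 0.35 in SK-MEL-28 (SE 0.064, edgeR adjusted p = 0.00235). Both changes passed an adjusted p of 0.05, and neither reached the fold change of 1.5 that a call required here. The difference between the lines was 0.02 (SE 0.082, edgeR adjusted p = 0.946).

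PIK3R2 encodes p85beta. In A375 it had 107, 123 and 114 CPM with etoposide and 129, 134 and 131 CPM with rapamycin added, and rose by 0.20 on the log2 scale (SE 0.054, edgeR adjusted p = 0.0143). In SK-MEL-28 it had 103, 173 and 124 CPM with etoposide and 152, 156 and 158 CPM with etoposide + rapamycin, where the groups overlapped (log2 fold change 0.22, SE 0.13, edgeR adjusted p = 0.294). Replicate 2 of SK-MEL-28 with etoposide was the highest of the 12 libraries and replicate 1 the lowest. The SK-MEL-28 value was 0.45 without that replicate 2 (edgeR adjusted p = 0.00329) and 0.062 without that replicate 1 (edgeR adjusted p = 0.756). The rise in A375 no longer passed without replicate 2 of etoposide + rapamycin (0.19, edgeR adjusted p = 0.0544) or in 1 fit of all 12 libraries (0.20, edgeR adjusted p = 0.251).

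The PIK3R2 count is uncertain because its locus is divided among 3 named genes of the table. PIK3R2 lies at chr19:18153163-18170532 on the forward strand, and the same assembled locus holds IFI30, a lysosomal thiol reductase, and AC007192.1, a readthrough transcript of both. The readthrough gene held 3793, 52 and 3014 counts in the SK-MEL-28 libraries with etoposide and at most 78 in those with rapamycin. In A375 it held 695, 2 and 39 counts with etoposide and 113, 0 and 0 with rapamycin. The SK-MEL-28 etoposide library with 52 readthrough counts was the one with the most PIK3R2 counts, 5216, and the one with 3793 had the fewest, 3144. How the counting divided reads among these names is not given in the sources used here.

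With the readthrough counts added to PIK3R2, an alternative chosen after seeing the data, PIK3R2 was lower with rapamycin in SK-MEL-28, by -0.40 on the log2 scale (SE 0.080, edgeR adjusted p = 0.00385). In A375 the same sum gave 0.12 (SE 0.052, edgeR adjusted p = 0.107). The direction of PIK3R2 in SK-MEL-28 therefore turned with the assignment of these reads, and the difference between the lines went from 0.02 (SE 0.17, edgeR adjusted p = 0.962) to -0.51 (edgeR adjusted p = 0.00852). The readthrough transcript covers IFI30 as well, whose counts in the same SK-MEL-28 etoposide libraries were 2020, 4294 and 3409. The sum may thus also hold IFI30 reads, here and wherever the readthrough counts are added below. How many was not tested.

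**Figure D2:**
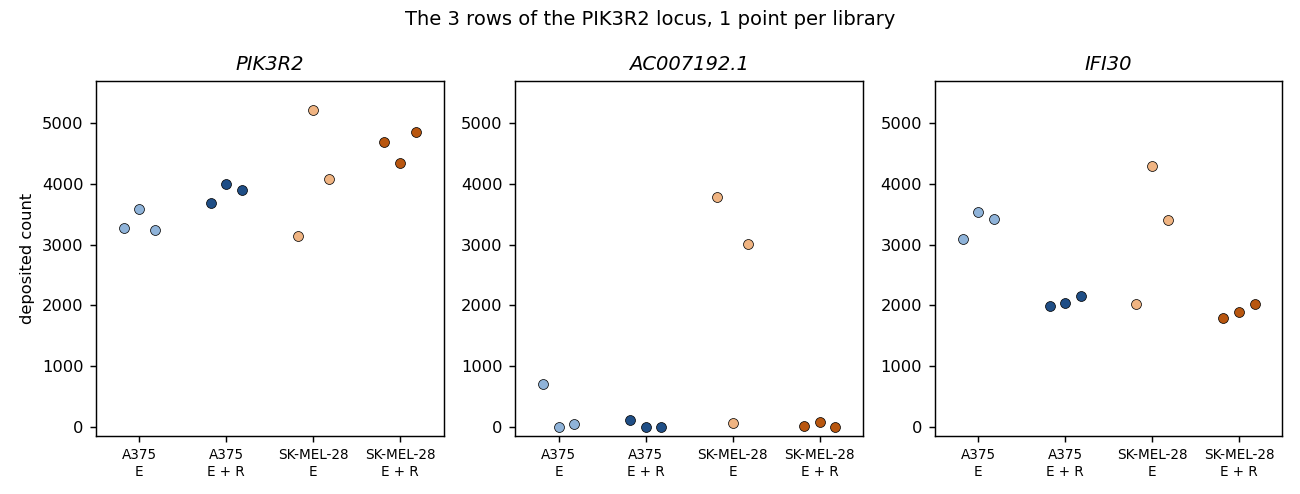
Deposited counts (y axis) of PIK3R2, the readthrough gene AC007192.1 and IFI30, which share a locus, with 1 point per library by group (x axis). In SK-MEL-28 with etoposide the library with 52 readthrough counts has the most PIK3R2 and IFI30 counts.

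Among the class IA regulatory transcripts, PIK3R2 made up most of the sum per kilobase in every group. The share of PIK3R3 was 13.3% ± 1.80 in A375 with etoposide and 6.91% ± 0.609 with rapamycin added (SD, n = 3). In SK-MEL-28 it was 14.2% ± 2.75 and 5.93% ± 0.895. The highest share with rapamycin, 7.57% in A375 and 6.96% in SK-MEL-28, lay below the lowest without it, 11.2% and 11.3%. PIK3R1 went from 9.83% ± 0.650 to 7.43% ± 0.136 in A375 and from 9.40% ± 2.15 to 6.97% ± 0.389 in SK-MEL-28. With the longest transcript as length, the PIK3R1 share was larger than that of PIK3R3, at 16.4% and 12.6% in A375 without and with rapamycin and at 15.7% and 11.9% in the SK-MEL-28 groups. The PIK3R3 share was then 12.5% and 6.63%, and 13.4% and 5.72%. The summed level of the 3 regulatory genes in A375 was 28.9 ± 1.13 CPM per kilobase with etoposide and 29.7 ± 0.549 with rapamycin added. In SK-MEL-28 it was 33.5 ± 6.81 and 34.5 ± 0.406 CPM per kilobase. The SK-MEL-28 values depended on the readthrough counts. With these added to PIK3R2, the sum there was 47.5 ± 5.47 with etoposide and 34.7 ± 0.331 with rapamycin added, and every library with rapamycin lay below those without it. In A375 the sum was then 30.4 ± 1.52 and 29.99 ± 0.423 CPM per kilobase. The PIK3R3 share in SK-MEL-28 with etoposide was 9.87% with the readthrough counts and no longer 14.2%.

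**Figure D3:**
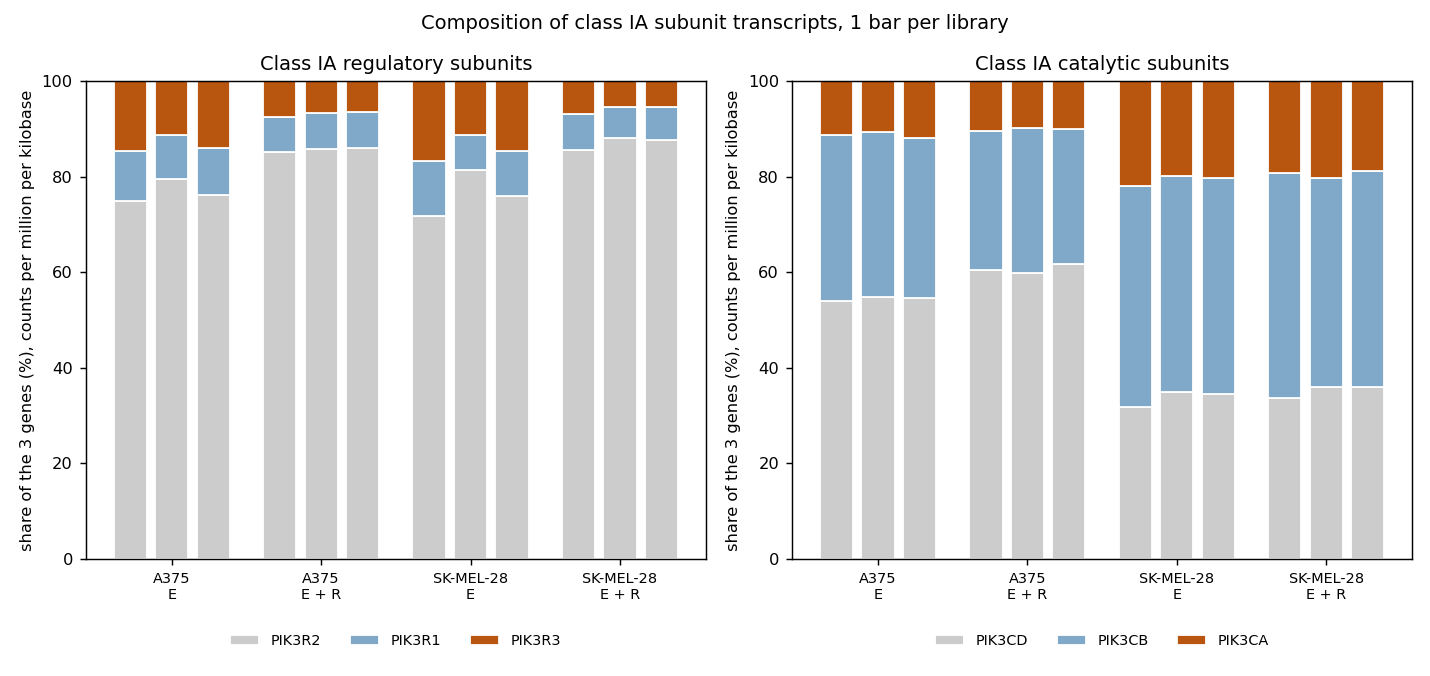
Share (%, y axis) of each class IA regulatory gene (left) and catalytic gene (right) in the sum of the 3 genes, on the scale of CPM per kilobase, with 1 bar per library by group. The PIK3R3 segment is 11.2% to 16.7% of a bar with etoposide and 5.37% to 7.57% with rapamycin added, and PIK3CD takes a larger segment in A375 than in SK-MEL-28.

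Of the catalytic subunits, only PIK3CD passed the test with rapamycin, and only in A375. PIK3CD encodes p110delta, best known from leukocytes. It had 90.7, 82.7 and 85.2 CPM in A375 with etoposide and 98.6, 98.6 and 100.5 CPM with rapamycin added. The groups did not overlap, and PIK3CD rose by 0.21 on the log2 scale (SE 0.049, edgeR adjusted p = 0.00729), under the 1.5-fold threshold. In SK-MEL-28 it had 38.7, 41.7 and 42.0 CPM with etoposide and 45.1, 45.5 and 45.6 CPM with etoposide + rapamycin, also without overlap, and the log2 fold change of 0.15 (SE 0.059) missed the threshold (edgeR adjusted p = 0.0994). Its response differed between the lines by -0.05 (SE 0.072, edgeR adjusted p = 0.763).

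Leukocyte markers were near 0 apart from LYZ. Of 5 leukocyte markers only LYZ exceeded 1 CPM, with group means of 16.8 CPM and 6.72 CPM in A375 without and with rapamycin, and of 32.0 CPM and 17.7 CPM in the SK-MEL-28 groups. The 5 markers summed to a median of 17.3 CPM in A375 with etoposide and 7.60 CPM with rapamycin added, and to 32.8 CPM and 19.2 CPM in the SK-MEL-28 groups. PTPRC, which marks all leukocytes, had group means of at most 0.459 CPM, CD3E at most 0.0709 CPM and CD14 at most 0.170 CPM. LYZ had log2 fold changes of -1.32 in A375 (edgeR adjusted p = 4.93e-06) and -0.85 in SK-MEL-28 (edgeR adjusted p = 7.91e-05). Among endothelial, fibroblast and keratinocyte markers, only PECAM1 in SK-MEL-28 passed (-0.70, edgeR adjusted p = 0.0488). COL1A1 was lower and PDGFRB higher in both lines, without overlap and without passing. The part of these markers in the changes described here was not tested. PIK3CD overlaps CLSTN1, an abundant gene on the opposite strand, and the antisense gene PIK3CD-AS2, and whether the counting used strand is not given in the sources used here.

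PIK3CA encodes p110alpha, the catalytic subunit that carries most insulin signaling. It ranged from 28.8 to 34.4 CPM over the 6 A375 libraries and from 42.8 to 48.1 CPM over the 6 SK-MEL-28 libraries, with overlap between treatments in both. Its log2 fold change was -0.11 (SE 0.080, edgeR adjusted p = 0.352) in A375 and -0.0041 (SE 0.064, edgeR adjusted p = 0.976) in SK-MEL-28. PIK3CB encodes p110beta, which also responds to G protein-coupled receptors. In A375 it had 42.7 to 47.9 CPM with etoposide and 37.6 to 41.0 CPM with rapamycin added, with a log2 fold change of -0.18 (SE 0.067, edgeR adjusted p = 0.0606). In SK-MEL-28 the groups overlapped, and the log2 fold change was 0.08 (SE 0.063, edgeR adjusted p = 0.431). Between the lines its response differed by 0.27 (SE 0.091), which was the largest of the 3 catalytic genes and missed the threshold (edgeR adjusted p = 0.0957).

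PIK3CD made up 54.5% ± 0.477 of the catalytic transcripts per kilobase in A375 with etoposide and 60.7% ± 0.969 with rapamycin added (SD, n = 3). In SK-MEL-28 it made up 33.7% ± 1.78 and 35.3% ± 1.32, beside 45.6% ± 0.750 and 45.3% ± 1.64 for PIK3CB. Which of these was larger in SK-MEL-28 depended on the length, since the longest transcript gave PIK3CD 38.4% and 40.2% and PIK3CB 36.8% and 36.6%. In A375 PIK3CD was the largest on either length, at 60.1% and 66.0% with the longest transcript. PIK3CA was the smallest of the 3 in both lines, at 11.3% ± 0.602 and 10.1% ± 0.410 in A375 and at 20.7% ± 1.03 and 19.5% ± 0.717 in SK-MEL-28.

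In A375 the insulin receptor substrates moved in opposite directions, and in SK-MEL-28 only IRS2 passed the test. IRS2 had 566, 477 and 515 CPM in A375 with etoposide and 736, 761 and 821 CPM with rapamycin added. In SK-MEL-28 it had 643, 677 and 658 CPM with etoposide and 1027, 942 and 1020 CPM with etoposide + rapamycin. The lowest library with rapamycin exceeded the highest without it in both lines. IRS2 rose by 0.58 on the log2 scale in A375 (SE 0.062, edgeR adjusted p = 3.41e-05) and by 0.59 in SK-MEL-28 (SE 0.046, edgeR adjusted p = 2.76e-06). These are fold changes of 1.49 and 1.51, on either side of the 1.5 that a call required. IRS2 thus passed the call in SK-MEL-28 but fell just short in A375. The SK-MEL-28 call was lost without some single libraries and with library totals. A call was gained in A375 without some single libraries, as given below. The response of IRS2 differed between the lines by 0.02 (SE 0.081, edgeR adjusted p = 0.922).

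IRS1 was scarce. In A375 it had 8.91, 8.70 and 10.7 CPM with etoposide, from 253 to 306 counts, and 6.51, 5.12 and 6.48 CPM with rapamycin added, from 152 to 193 counts. In SK-MEL-28 it had 17.4, 15.5 and 16.6 CPM with etoposide and 15.3, 11.4 and 13.7 CPM with etoposide + rapamycin. Every library with rapamycin lay below the lowest one without it in either line. IRS1 fell by 0.64 on the log2 scale in A375 (SE 0.14, edgeR adjusted p = 0.00435), a 1.56-fold lower level that was called. In SK-MEL-28 the log2 fold change was -0.30 (SE 0.11) and missed the threshold (edgeR adjusted p = 0.0889). The difference between the lines was 0.35 (SE 0.18, edgeR adjusted p = 0.290), so a difference in response was not detectable. The call of IRS1 in A375 was lost without replicate 3 of etoposide or replicate 2 of etoposide + rapamycin, where the log2 fold change was -0.54 and -0.53.

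GRB10 had 24.4, 27.0 and 25.0 CPM in A375 with etoposide and 32.2, 28.7 and 28.4 CPM with rapamycin added. These groups did not overlap, and the log2 fold change of 0.23 (SE 0.080) lay at the threshold without passing it (edgeR adjusted p = 0.0502). In SK-MEL-28 all 6 libraries lay between 13.4 and 15.2 CPM, and the log2 fold change was -0.03 (SE 0.095, edgeR adjusted p = 0.885). Its response differed between the lines by -0.25 (SE 0.11, edgeR adjusted p = 0.233).

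Counted together, 1 of the 8 genes other than PIK3R3 was called in A375 (IRS1) and 1 in SK-MEL-28 (IRS2), where 5.89% of 18844 and 4.99% of 18897 genes tested were called. At an adjusted p under 0.05 with any fold change, 5 of the 8 passed in A375 (PIK3R2, PIK3CD and IRS2 higher, PIK3R1 and IRS1 lower) and 2 in SK-MEL-28 (IRS2 higher, PIK3R1 lower), beside 28.1% and 19% of all genes tested. The 8 had a median log2 fold change of 0.05 in A375, where all genes tested had -0.01, and of 0.04 in SK-MEL-28, where all genes tested had 0.01. Since the set was drawn up with these contrasts known, nothing is read from these counts. In the test of a difference between the lines 0 of the 8 passed by edgeR, beside 5.62% of 20101 genes, and 2 of them, PIK3CB and GRB10, had an unadjusted p under 0.05.

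**Figure D4:**
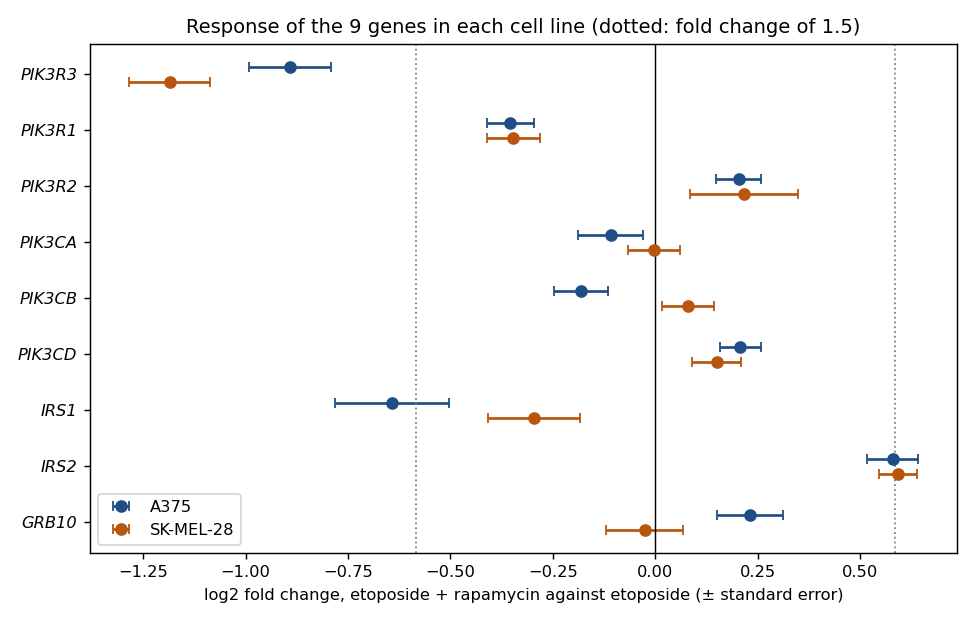
Log2 fold change with rapamycin (x axis, ± standard error from the edgeR fit) of each of the 9 genes (y axis) in A375 and SK-MEL-28, with dotted lines at a fold change of 1.5. PIK3R3 lies farthest to the left in both lines, IRS1 in A375 is the only other value past the left line, and IRS2 sits at the right line in both.

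The cell lines themselves were compared with etoposide alone. This contrast did not select the genes, but it shares its libraries with the rapamycin contrasts of PIK3R3 that did. Earlier results of the same libraries were also known. In SK-MEL-28 with etoposide, PIK3CD was 2.11-fold lower than in A375 with etoposide (log2 fold change -1.08, SE 0.062, edgeR adjusted p = 3.47e-08). GRB10 was 1.81-fold lower (log2 fold change -0.85, SE 0.087, edgeR adjusted p = 7.19e-06). IRS1 was 1.75-fold higher (log2 fold change 0.81, SE 0.11, edgeR adjusted p = 9.42e-05). No library of one line overlapped the other for any of these 3 genes.

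PIK3CA, IRS2 and PIK3R3 were also higher in SK-MEL-28, by 0.49 (SE 0.080, edgeR adjusted p = 0.000426), 0.35 (SE 0.059, edgeR adjusted p = 0.000582) and 0.28 (SE 0.081, edgeR adjusted p = 0.0174) on the log2 scale, under the 1.5-fold threshold. PIK3R3 did not pass without replicate 2 of A375 with etoposide (0.20, edgeR adjusted p = 0.0697) or replicate 3 of SK-MEL-28 with etoposide (0.28, edgeR adjusted p = 0.0612). PIK3R1 (0.11, SE 0.062, edgeR adjusted p = 0.214), PIK3R2 (0.22, SE 0.14, edgeR adjusted p = 0.260) and PIK3CB (0.02, SE 0.067, edgeR adjusted p = 0.828) did not pass, although PIK3R2 did without replicate 1 of SK-MEL-28 with etoposide (0.37, edgeR adjusted p = 0.0313). In all, 3 of 9 were called, against 13% of 19025 genes tested, and 6 of 9 passed with any fold change, against 31.7%. As for the rapamycin contrasts, nothing is read from these counts. With the readthrough counts added, PIK3R2 was higher in SK-MEL-28 by 0.75 (SE 0.085, edgeR adjusted p = 1.99e-05). The cell line cannot be told apart from anything else that differed between the 2 sets of cultures.

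The rest of the pathway was read from 6 lists, which were also drawn up with earlier results of the same libraries known. Their counts and shares of genes called or passed support nothing on their own. The lists held 62 genes, of which 56 were tested in each cell line. Of these, 4 were called in A375 (FBXO32 higher, TRIB2, SESN3 and PDK4 lower) and 6 in SK-MEL-28 (IGF1R and FBXO32 higher, PIK3C2B, INPP5D, SESN3 and CITED2 lower). The shares, 7.14% and 10.7%, stood beside 5.89% and 4.99% of all genes tested. With each library left out, 2 to 4 were called in A375 and 4 to 7 in SK-MEL-28. With any fold change 28 passed in A375, 11 higher and 17 lower, and 22 in SK-MEL-28, 6 higher and 16 lower. These shares, 50% and 39.3%, stood beside 28.1% and 19% of all genes tested, which were 2691 higher and 2604 lower in A375 and 1668 higher and 1914 lower in SK-MEL-28. The median log2 fold change of the 56 was -0.05 and -0.09.

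Upstream of the 9 genes, the receptors that phosphorylate IRS1 and IRS2 were higher with rapamycin. The insulin receptor INSR had 19.4, 20.2 and 16.8 CPM in A375 with etoposide and 26.4, 27.7 and 26.5 CPM with rapamycin added, and rose by 0.52 on the log2 scale (SE 0.090, edgeR adjusted p = 0.00104). In SK-MEL-28 it rose by 0.45 (SE 0.092, edgeR adjusted p = 0.00472). IGF1R, the receptor of insulin-like growth factor 1, went from 158, 140 and 146 CPM to 194, 194 and 197 CPM in A375 (log2 fold change 0.40, SE 0.051, edgeR adjusted p = 0.000121). In SK-MEL-28 it went from 174, 169 and 163 CPM to 274, 236 and 253 CPM (log2 fold change 0.59, SE 0.060, edgeR adjusted p = 2.52e-05). Of the 5 receptors and ligands tested, 3 passed in A375 and 2 in SK-MEL-28, all higher, beside 28.1% and 19% of all genes tested that passed in either direction. ERBB3, a receptor with many PI3K docking sites, was the third in A375 (0.14, SE 0.046, edgeR adjusted p = 0.0377). The ligand genes INS and IGF1 were too low to test in either line.

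Among adaptors, SHC1, which links receptors to RAS, fell in both lines, by 0.22 in A375 (SE 0.039, edgeR adjusted p = 0.00119) and by 0.16 in SK-MEL-28 (SE 0.046, edgeR adjusted p = 0.0316). SH2B1 and DOK1, which bind activated receptors and their substrates, rose in A375 by 0.30 (SE 0.049, edgeR adjusted p = 0.000752) and 0.32 (SE 0.097, edgeR adjusted p = 0.0266). Of the adaptors tested, 3 of 10 passed in A375, 2 higher and 1 lower, and 2 of 11 in SK-MEL-28, both lower, which is near the 28.1% and 19% of all genes, and 0 were called. Of the PI3K subunits of other classes, 2 of 5 passed in A375 and 3 of 4 in SK-MEL-28, all lower. These stood beside 28.1% and 19% of all genes tested that passed in either direction. PIK3C2A, a class II enzyme, fell by 0.44 (SE 0.072, edgeR adjusted p = 0.000733) and by 0.21 (SE 0.069, edgeR adjusted p = 0.0475). PIK3C3, the class III enzyme of autophagy and endosomes, fell by 0.20 in A375 (SE 0.065, edgeR adjusted p = 0.0378) and by 0.22 in SK-MEL-28 (SE 0.056, edgeR adjusted p = 0.0170). PIK3C2B fell by 0.62 in SK-MEL-28 (SE 0.13, edgeR adjusted p = 0.00487), from 8.80, 10.8 and 11.6 CPM to 6.78, 7.15 and 6.53 CPM. The gamma catalytic subunit PIK3CG, at most 0.172 CPM in any library, was not tested.

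Of 12 phosphatases and inhibitors, 4 passed in A375 and 3 in SK-MEL-28, all lower, or 33.3% and 25% beside 28.1% and 19% of all genes. TRIB2, a pseudokinase that binds AKT, fell by 0.64 in A375 (SE 0.050, edgeR adjusted p = 2.89e-06) and by 0.37 in SK-MEL-28 (SE 0.060, edgeR adjusted p = 0.000859). INPP5D, the inositol phosphatase SHIP1, had 7.65, 6.75 and 6.74 CPM in SK-MEL-28 with etoposide and 4.03, 5.00 and 4.45 CPM with rapamycin added (log2 fold change -0.65, SE 0.14, edgeR adjusted p = 0.00552). INPP5D is known from leukocytes, where LYZ, which was also lower with rapamycin, is abundant. PTPRC had at most 0.463 CPM in any SK-MEL-28 library. In that line PTPRC was also lower with rapamycin, without overlap (log2 fold change -1.53, SE 0.67, edgeR adjusted p = 0.139). A link between INPP5D and these leukocyte markers was not tested. PTPN1, a phosphatase that acts on the insulin receptor, fell by 0.19 in A375 (SE 0.045, edgeR adjusted p = 0.00608) and by 0.27 in SK-MEL-28 (SE 0.051, edgeR adjusted p = 0.00241).

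Of 8 downstream kinases, 5 passed in A375, 2 higher and 3 lower, and 3 in SK-MEL-28, 2 higher and 1 lower, beside 28.1% and 19% of all genes, and 0 were called. AKT1, a kinase that binds PIP3, rose in both lines, by 0.34 (SE 0.049, edgeR adjusted p = 0.000291) and by 0.20 (SE 0.052, edgeR adjusted p = 0.0168). In A375 AKT2 rose by 0.27 (SE 0.051, edgeR adjusted p = 0.00188), while SGK1 fell by 0.44 (SE 0.064, edgeR adjusted p = 0.000305), SGK3 by 0.49 (SE 0.16, edgeR adjusted p = 0.0373) and GSK3B by 0.16 (SE 0.043, edgeR adjusted p = 0.0144). In SK-MEL-28 PDPK1, the kinase that activates AKT, fell by 0.27 (SE 0.057, edgeR adjusted p = 0.00586). Of 16 FOXO factors and FOXO target genes, 11 passed in A375, 4 higher and 7 lower, and 9 in SK-MEL-28, 2 higher and 7 lower. These were 68.8% and 56.3% of the list, beside 28.1% and 19% of all genes. FBXO32, the ubiquitin ligase atrogin-1, rose by 0.60 (SE 0.048, edgeR adjusted p = 3.29e-06) and by 0.62 (SE 0.052, edgeR adjusted p = 4.63e-06). SESN3, an mTOR complex 1 inhibitor, fell by 1.14 (SE 0.15, edgeR adjusted p = 0.000145) and by 1.07 (SE 0.14, edgeR adjusted p = 0.000130). PDK4, a pyruvate dehydrogenase kinase, fell by 0.64 (SE 0.098, edgeR adjusted p = 0.000446) and by 0.35 (SE 0.11, edgeR adjusted p = 0.0384), and CITED2, a transcriptional coregulator, by 0.39 (SE 0.057, edgeR adjusted p = 0.000334) and by 0.68 (SE 0.055, edgeR adjusted p = 3.37e-06). FOXO target genes thus did not move in 1 direction.

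**Figure D5:**
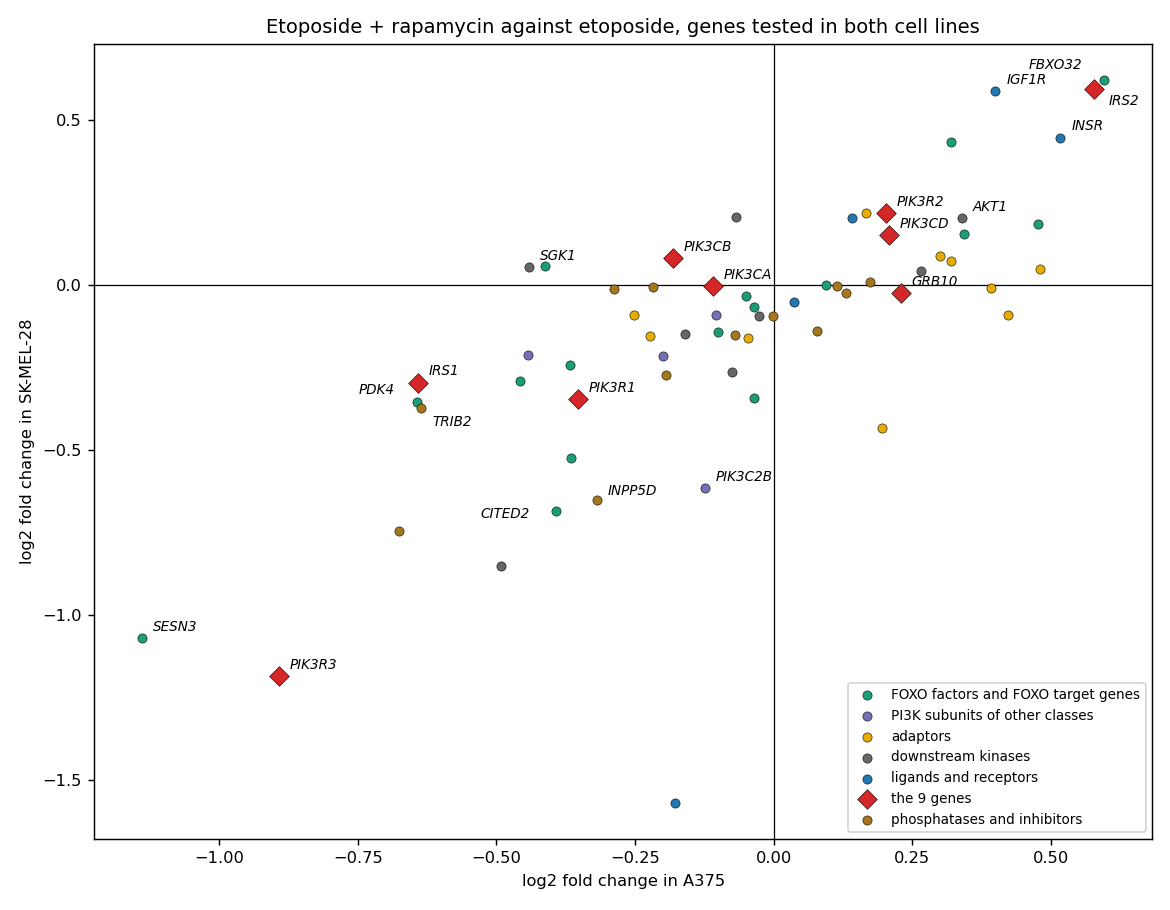
Log2 fold change with rapamycin in A375 (x axis) and in SK-MEL-28 (y axis) for the 9 genes (diamonds) and the pathway genes tested in both lines (circles, coloured by list). The labelled circles were picked after their values were seen. IRS2, INSR, IGF1R and FBXO32 lie together at the upper right and PIK3R3 and SESN3 at the lower left.

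The genes whose levels followed PIK3R3 most closely over the 12 libraries, among 12195 genes with a mean of at least 100 counts, were HSPA5 (Pearson r of log2 CPM 0.983), PCSK5 (0.980), CA9 (0.980), SCD (0.977) and PDK1 (0.976). HSPA5 is a chaperone of the endoplasmic reticulum, PCSK5 a proprotein convertase, CA9 a carbonic anhydrase of the cell surface, SCD a fatty acid desaturase and PDK1 a pyruvate dehydrogenase kinase. Their log2 fold changes ran from -3.42 for CA9 to -0.41 for PCSK5 in A375, and from -4.76 for CA9 to -0.62 for HSPA5 in SK-MEL-28, beside -0.89 and -1.19 for PIK3R3. Those closest to IRS2 were SPEG (0.982), IGF1R (0.978), LATS2 (0.977), SELENON (0.972) and NEMP1 (0.970). SPEG encodes a muscle-type kinase, LATS2 a kinase of the Hippo pathway, and IGF1R is a receptor that signals through IRS2 itself. These correlations describe libraries that share their treatment and cell line, so any gene with the same order of the 4 groups scores highly, and no p is given.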

How the data were processed

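The authors mapped reads to GRCh38 with HISAT2, handled alignments with Samtools and estimated expression with StringTie and the Ensembl annotation. They deposited raw counts per gene and library, without normalization or pooling. How coverage became counts is not given in the sources used here, and totals of 28189501 to 32499337 counts set the depth, so precision is given by the spread between libraries. Of 58312 rows, 5 named no gene (0.00099% to 0.0053% of a library's counts) and were left out. No symbol of the 9 genes repeated.

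Groups came from the sample labels. The 6 libraries of a cell line were fitted on their own in edgeR 4.0.16 in R 4.3.3 (filterByExpr with a minimum count of 10, TMM, glmQLFit and glmQLFTest), as were the etoposide groups of both lines, and p-values were adjusted by Benjamini-Hochberg across every gene tested. The difference between the lines was the interaction in 1 fit of 12 libraries. Calls needed a fold change over 1.5 at an adjusted p under 0.05, the thresholds of the study's methods, and for the difference an adjusted p under 0.05. "Passed" means an adjusted p under 0.05 with any fold change. Standard errors were derived from the log2 fold change and its F statistic (absolute value over root F). A check of the tests on simulated data was also run, and its values are not given here.

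The genes and lists were chosen with earlier results of these data known. The genes named are the 9, the list genes called in either line (up to 6 a list), and the 5 closest by correlation to PIK3R3 and to IRS2. The other pathway genes named come from the lists and were picked after their values were seen. Alternatives were DESeq2 1.42.0, its size factors in edgeR, library totals, 2 other filters (1 count in any library, 10 in every library), rows of 1 symbol summed, a replicate block, 1 fit of all libraries, no fold change threshold, other gene lengths, each library left out, and the readthrough counts added to PIK3R2. Exons came from GENCODE and promoters from RefSeq (GRCh38.p14), where all 9 genes matched. Protein assays were not analysed here. The values of some listed genes are not reported here, and counts and sums over the lists include them.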

Additional observations from a re-analysis of the deposited data

Results flagged for a closer look

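Among the pathway genes, the 2 lines responded differently to rapamycin by edgeR's test of the interaction over 12 libraries for SGK1, INPP4B and CITED2, beside 5.62% of all genes tested. The log2 fold change in SK-MEL-28 minus that in A375 was 0.50 for SGK1, a kinase of the AKT group (SE 0.090, edgeR adjusted p = 0.00375), which fell by 0.44 in A375. It was 0.28 for INPP4B, a phosphatase of PI3K lipids (SE 0.076, edgeR adjusted p = 0.0388), which fell by 0.29 in A375. It was -0.28 for CITED2 (SE 0.081, edgeR adjusted p = 0.0493), which fell in both lines and more in SK-MEL-28.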

How the results depend on the processing

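Calls of IRS1 and IRS2 rested on the fold threshold. Of the 8 genes other than PIK3R3, 0 to 2 were called in A375 when each library was left out, and 0 to 1 in SK-MEL-28. IRS1 was lost without replicate 3 of etoposide (edgeR adjusted p = 0.0263) or replicate 2 of etoposide + rapamycin (edgeR adjusted p = 0.0226) in A375, and IRS2 was gained there without replicate 1 of etoposide or replicate 1 or 2 of etoposide + rapamycin. IRS2 was lost in SK-MEL-28 without replicate 1 of etoposide or replicate 1 or 3 of etoposide + rapamycin, and with library totals (0 called, log2 fold change 0.56). Pathway genes called ran from 2 to 4 in A375 and from 4 to 7 in SK-MEL-28. With no fold threshold the counts were 5 and 2 of the 8, 28 and 22 pathway genes, and 6 of 9 between the lines. With readthrough counts added, 1 gene (PIK3R2) differed in response, at -0.51, its SK-MEL-28 log2 fold change turned to -0.40, and the PIK3R3 share in SK-MEL-28 with etoposide was 9.87%. The value of PIK3R2 between the lines then passed (0.75, edgeR adjusted p = 1.99e-05). Without division by length the PIK3R3 shares with rapamycin were 8.31% (A375) and 7.22% (SK-MEL-28). With each library left out, the PIK3R3 share per kilobase of merged exon was 12.6% to 14.3% in A375 with etoposide. It was 6.57% to 7.17% there with rapamycin added. In SK-MEL-28 the ranges were 13% to 15.7% with etoposide and 5.41% to 6.21% with rapamycin added. The other values that changed sign had not passed with all libraries. The PIK3R1 difference became -0.0035 with a filter of 10 counts in every library. With each library left out, log2 fold changes in SK-MEL-28 ran from -0.041 to 0.046 for PIK3CA and from -0.061 to 0.034 for GRB10. The differences in response ran from -0.019 to 0.060 for PIK3R1, from -0.13 to 0.25 for PIK3R2 and from -0.059 to 0.073 for IRS2, and the values between the lines from -0.0085 to 0.37 for PIK3R2 and from -0.0056 to 0.080 for PIK3CB. The replicate block moved no count of calls past 1.5 times, and same-numbered libraries did not deviate together (correlations of deviations from -0.030 to 0.021), so the numbers were not used as pairs. The causes of these changes were not tested beyond what each setting left out. At an adjusted p of 0.05 with any fold change, GRB10 in A375 passed under 5 alternatives (DESeq2 gave 0.0328), PIK3CB in A375 under 3 (library totals gave 0.0244), IRS1 in SK-MEL-28 without replicate 1 of etoposide + rapamycin (edgeR adjusted p = 0.0383), and PIK3R2 in SK-MEL-28 without replicate 2 of etoposide (edgeR adjusted p = 0.00329) and between the lines without replicate 1 of SK-MEL-28 with etoposide (edgeR adjusted p = 0.0313). PIK3R2 in A375 no longer passed under 3 alternatives, nor PIK3R3 between the lines under 2. Depth was lowest for IRS1, with 152 to 548 counts.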
